A study of Mus musculus with 6 samples.

Results

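Neutrophils carry a dense store of antimicrobial proteins, and 10 genes of that store were followed here through single-cell RNA sequencing of mouse liver, out of 16623 genes in the table. They are S100a8 and S100a9, whose calcium-binding products pair as the alarmin calprotectin; the granule genes Camp (cathelicidin), Ngp (neutrophilic granule protein), Ltf (lactoferrin), Lcn2 (a lipocalin that binds iron-carrying siderophores), Mmp8 (a collagenase) and Chil3 (a chitinase-like protein); Retnlg, a secreted resistin-like protein; and Ly6g, a surface antigen used to sort mouse neutrophils. The genes were chosen by name with earlier results of these libraries known, partly on the measured plasma B cell differences of S100a8, S100a9 and Retnlg. Livers came from 3 wild-type (WT) and 3 SIRT7 KO mice aged 5 to 6 months. SIRT7 is a histone deacetylase, and the study used its knockout as a model of fatty liver disease. Hepatocytes and nonparenchymal cells were isolated by collagenase perfusion, mixed and loaded on the 10x Genomics platform, so the share of any cell type reflects that mixture as well as the liver. The tables hold 11610 cells, and levels are given as CP10K, a gene's transcripts per 10000 transcripts (UMIs) of a cell.

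Granule genes of neutrophils are not all switched on together. In the bone marrow, proteins of the azurophil granules, such as elastase and myeloperoxidase, are made first by dividing precursors. Those of the specific granules, including cathelicidin and lactoferrin, follow in later precursors under the transcription factor C/EBP epsilon, and gelatinase granule and surface proteins are made last. A mature blood neutrophil therefore keeps the earlier proteins but little of their messenger RNA. S100a8 and S100a9 transcripts remain abundant, and monocytes also use these genes.

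Several of the granule genes varied together from cell to cell, and the DNA just before the starts of 4 of them is shown for that reason. Sequences are from the RefSeq promoter table (GRCm38.p6, the build of the files), which held all 10 genes, and each stretch ends before both the RefSeq and the GENCODE start. Capitals mark a C/EBP-type motif, searched as TTGCNNAA and, for the other strand, TTNNGCAA. Ngp and Ltf belong to the group of genes seen with Camp, and Mmp8 to the group seen with Retnlg.
Ngp (chr9:110419627-110419746, + strand): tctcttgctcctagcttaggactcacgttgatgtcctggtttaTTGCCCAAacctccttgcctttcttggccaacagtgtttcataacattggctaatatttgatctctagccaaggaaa
Ltf (chr9:111019151-111019270, + strand): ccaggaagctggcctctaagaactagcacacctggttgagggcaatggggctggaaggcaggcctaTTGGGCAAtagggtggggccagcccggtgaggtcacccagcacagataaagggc
Mmp8 (chr9:7558309-7558428, + strand): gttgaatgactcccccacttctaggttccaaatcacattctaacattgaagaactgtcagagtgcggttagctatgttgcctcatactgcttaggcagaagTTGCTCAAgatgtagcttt
Camp (chr9:109849618-109849706, - strand): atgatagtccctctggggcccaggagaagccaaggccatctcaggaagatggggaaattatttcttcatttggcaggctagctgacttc
In the 250 bases before the RefSeq start, 7 of the 10 genes held the motif, against 9.56% of 32851 promoters of that length. Ly6g had a second RefSeq start without the motif, and its first was counted. Camp, Chil3 and S100a8 did not hold these letters in that window. A motif for PU.1, GAGGAA or TTCCTC, was present in 5 of the 10 and in 23.3% of all promoters. These matches are letters in a window and were not tested.

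The genes lie on 5 chromosomes in GENCODE vM21 (GRCm38). S100a8 (chr3:90668978-90670035) and S100a9 (chr3:90692632-90695721) face each other across 22596 bases of chromosome 3. Camp, Ngp, Ltf and Mmp8 are on chromosome 9, the first 3 at chr9:109847379-109849617, chr9:110419747-110423012 and chr9:111019271-111042767. Chil3 and Ly6g have close relatives in the genome, and transcripts split between such copies cannot be told apart here.

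The cells were grouped without the 10 genes, so that none of them decided where a cell fell. This gave 13 classes. The neutrophil-like class held 171 cells, and Pglyrp1, Anxa1, Mmp9, Csf3r, Cxcr2 and Il1b were among its leading genes. All 15 neutrophil markers were detected in it, as they also were in macrophage-like and T-like cells. Not all of them were highest there, with Fpr1 and G0s2 among the exceptions. Hepatocytes fell into a class marked by Fabp1 and Gsta3 (hepatocyte 1-like), whose top gene was the haemoglobin gene Hbb-bs, and one marked by G6pc and Abcc2 (hepatocyte 2-like). Sirt7 itself was at 0.718, 0.512 and 0.546 CP10K in the 3 WT mice and at 0.1, 0.0814 and 0.139 in the 3 SIRT7 KO mice. Totals ranged from 2511947 to 11069411 UMIs per mouse, and SIRT7 KO mouse 1 supplied 5609 of the cells. That library stands apart in what follows. Outside the neutrophil-like class, 64.2% of its cells had no UMI of the 10 genes, against 83.8% to 94.5% in the other 5 mice, so values with and without it are given.

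Neutrophil-like cells were rare, and their share did not separate the genotypes. They made up 1.85%, 0.965% and 1.10% of the cells of the WT mice and 1.82%, 0.413% and 2.90% of those of the SIRT7 KO mice. The mean share was 1.30% ± 0.478 (SD, n = 3) in WT and 1.71% ± 1.25 (SD, n = 3) in SIRT7 KO, a difference of 0.406 percentage points (two-sided exact permutation test, p = 0.7, n = 3 against 3, which allows no p below 0.1). Without SIRT7 KO mouse 3 the difference was -0.188 percentage points. WT mouse 2 and SIRT7 KO mouse 2 each contributed 9 neutrophil-like cells, so their values below rest on few cells. With the 10 genes left in the clustering, 297 cells instead of 171 were called neutrophil-like, and 110 of the 126 extra cells came from SIRT7 KO mouse 1.

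Within these cells the 10 genes took a large part of all RNA. Their summed share had a median of 27.3% of a cell's UMIs, with single cells between 0.495% and 57.3%. Medians per mouse were 9.15%, 4.77% and 44.2% in WT and 34.7%, 19.1% and 11.1% in SIRT7 KO. WT mouse 3 and SIRT7 KO mouse 1 were thus high. WT mice 2 and 1 were lowest, with SIRT7 KO mouse 3 next, and the genotypes overlapped.

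The alarmin pair was the most abundant. S100a8 averaged 420.8, 319.1 and 1651 CP10K in the WT mice and 1254, 749.5 and 718.7 in the SIRT7 KO mice. S100a9 averaged 498.8, 319.3 and 1214 CP10K in WT and 1334, 757.2 and 748.2 in SIRT7 KO. The genotypes overlapped for both genes, with differences of 0.54 and 0.66 on the log2(CP10K + 0.05) scale (exact permutation tests over 3 against 3 mice, p = 0.5 and p = 0.4). S100a8 gave 47.2% to 57.5% of the UMIs of the pair across the 6 mice. Together the pair made up 72.4% to 90.0% of the UMIs of the 10 genes. Of the 171 cells, all but 1 had an S100a8 UMI and every one had an S100a9 UMI.

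The granule genes varied far more between mice. Camp, the cathelicidin precursor, averaged 11.2, 1.99 and 314.7 CP10K in the WT mice and 342.8, 200.4 and 47.1 in the SIRT7 KO mice, a range of 172-fold from the lowest mouse to the highest. Ngp averaged 12.1, 22.9 and 303.6 CP10K in WT and 206.2, 176.6 and 50.1 in SIRT7 KO. Chil3 averaged 1.09, 0.996 and 37.1 CP10K in WT and 35.7, 25.0 and 5.58 in SIRT7 KO. In all 3 genes WT mouse 3 and SIRT7 KO mice 1 and 2 were high, WT mice 1 and 2 were low, and SIRT7 KO mouse 3 lay between.

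Ltf, the lactoferrin gene, ranged from 2.88 to 53.3 CP10K between mice, and Lcn2 from 15.3 to 109.6. Retnlg varied less, at 18.1, 43.5 and 67.6 CP10K in WT and 79.8, 49.1 and 55.6 in SIRT7 KO. Mmp8, the collagenase, was at 2.48, 5.98 and 20.8 CP10K in WT and 10.1, 2.30 and 5.79 in SIRT7 KO. Ly6g was the lowest of the 10, between 0.344 and 9.56 CP10K. The gap between Mmp8 and Ly6g did not exceed their spread over the 6 mice, 7.91 ± 6.94 against 3.18 ± 3.55 CP10K (SD, n = 6), and the same held for S100a8 against S100a9, 852.1 ± 509.5 against 811.8 ± 395.4. These levels compare genes by counted molecules, since 3′ UMI counts do not scale with transcript length.

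Mean levels on the log scale were higher in SIRT7 KO for 8 of the 10 genes and lower for Mmp8 and Ly6g. None of the 10 differences passed the test, and the genotypes overlapped for every gene. The largest were Camp, with a log2 difference of 2.93 (exact permutation test, p = 0.3, n = 3 against 3), and Chil3, with 2.28 (exact permutation test, p = 0.4, n = 3 against 3). The 10 genes are not independent of each other within a mouse.

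**Figure D1:**
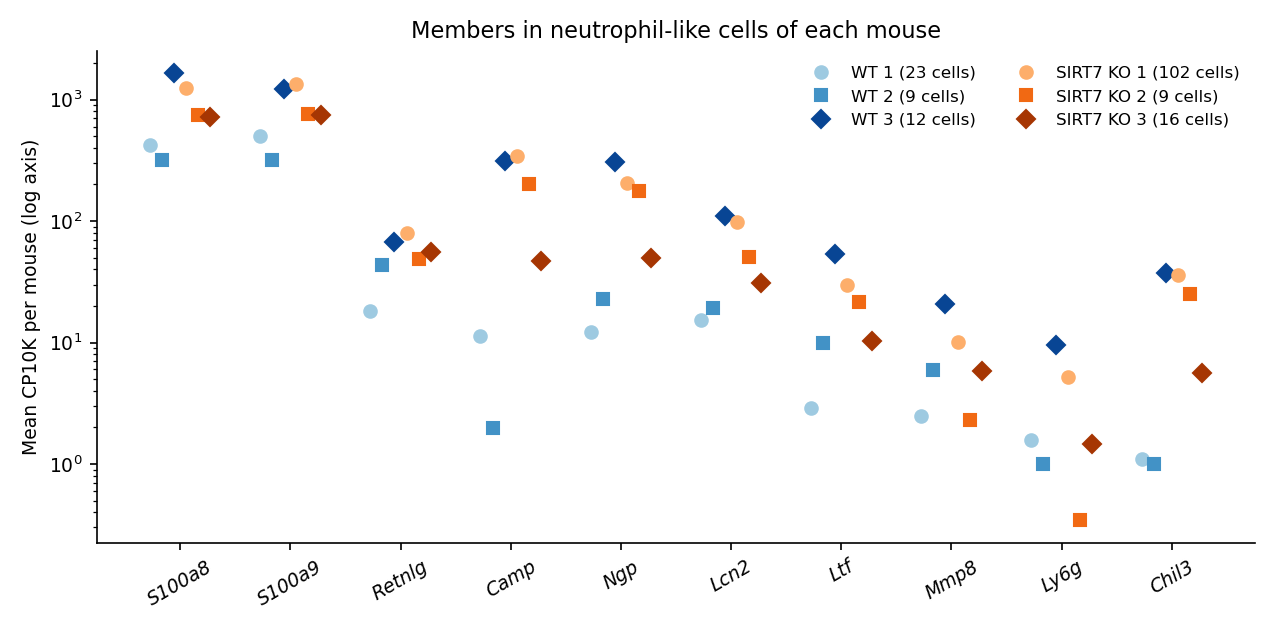
Mean level of each of the 10 genes in the neutrophil-like cells of each mouse (y axis, CP10K on a log axis; 1 point per mouse, with its number of cells in the legend). WT and SIRT7 KO points overlap for every gene, and Camp spans 1.99 to 342.8 CP10K.

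Read cell by cell, the mice differed in how many of their neutrophil-like cells had Camp at all. A Camp UMI was found in 1 of 23, 1 of 9 and 10 of 12 neutrophil-like cells of the WT mice, and in 81 of 102, 4 of 9 and 3 of 16 of the SIRT7 KO mice. As shares these were 4.35% (exact 95% binomial interval 0.11% to 21.9%), 11.1% (0.281% to 48.2%) and 83.3% (51.6% to 97.9%) in WT, and 79.4% (70.3% to 86.8%), 44.4% (13.7% to 78.8%) and 18.8% (4.05% to 45.6%) in SIRT7 KO. The mean share was 32.9% ± 43.8 (SD, n = 3) in WT and 47.5% ± 30.4 (SD, n = 3) in SIRT7 KO, and the test did not separate them (exact permutation test, p = 0.6, n = 3 against 3). The intervals cover counting error only.

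Cells with a Camp UMI carried the other granule genes in every mouse. In WT mouse 3 they averaged 377.6 CP10K of Camp, 364.3 of Ngp and 44.5 of Chil3. In SIRT7 KO mouse 1 they averaged 431.7, 258.2 and 44.9 CP10K of these genes, and in SIRT7 KO mouse 2 450.9, 397.4 and 56.2. The single such cell of WT mouse 1 had 258.3, 278.9 and 25.1, and that of WT mouse 2, the lowest, had 17.9, 206.1 and 8.96.

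Cells without a Camp UMI had no Ngp in 5 of the 6 mice and 5.47 CP10K in SIRT7 KO mouse 1, and no Ltf or Chil3 in any mouse. Their S100a8 was lower than in cells with Camp in every mouse, at 345.5, 286.1 and 26.5 CP10K in WT and 535.5, 306.6 and 504.8 in SIRT7 KO. Their Lcn2 was at 9.13, 2.72 and 0 CP10K in WT and 28.98, 12.002 and 9.61 in SIRT7 KO. WT mouse 3, with 2 such cells, was lowest in both. These cells were shallower in 5 of the 6 mice, for example 1275 against 2176 UMIs (medians) in SIRT7 KO mouse 1. The exception was WT mouse 3.

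Over the 171 cells the genes fell into groups, given here as descriptions because cells of a mouse share a library. Camp and Ngp had a Spearman rho of 0.93, Camp and Chil3 0.90, Ngp and Ltf 0.89, and S100a8 and S100a9 0.93. Retnlg went the other way from Camp, with a rho of -0.47, and with Mmp8 it had a rho of 0.61. The mice did not all share the first of these. Mean Retnlg was lower in cells with a Camp UMI in SIRT7 KO mouse 1, at 58.6 against 161.8 CP10K without one. It was also lower in SIRT7 KO mouse 2, at 5.26 against 84.2. In the 3 WT mice and SIRT7 KO mouse 3 it was higher in cells with Camp, for example 79.7 against 6.96 in WT mouse 3. Within the 102 cells of SIRT7 KO mouse 1 alone, Retnlg and Camp had a rho of -0.74 and Retnlg and Mmp8 0.64. Scaling each gene to the UMIs of all other genes, so that the 10 genes could not crowd each other out, left these at -0.72 and 0.64.

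**Figure D2:**
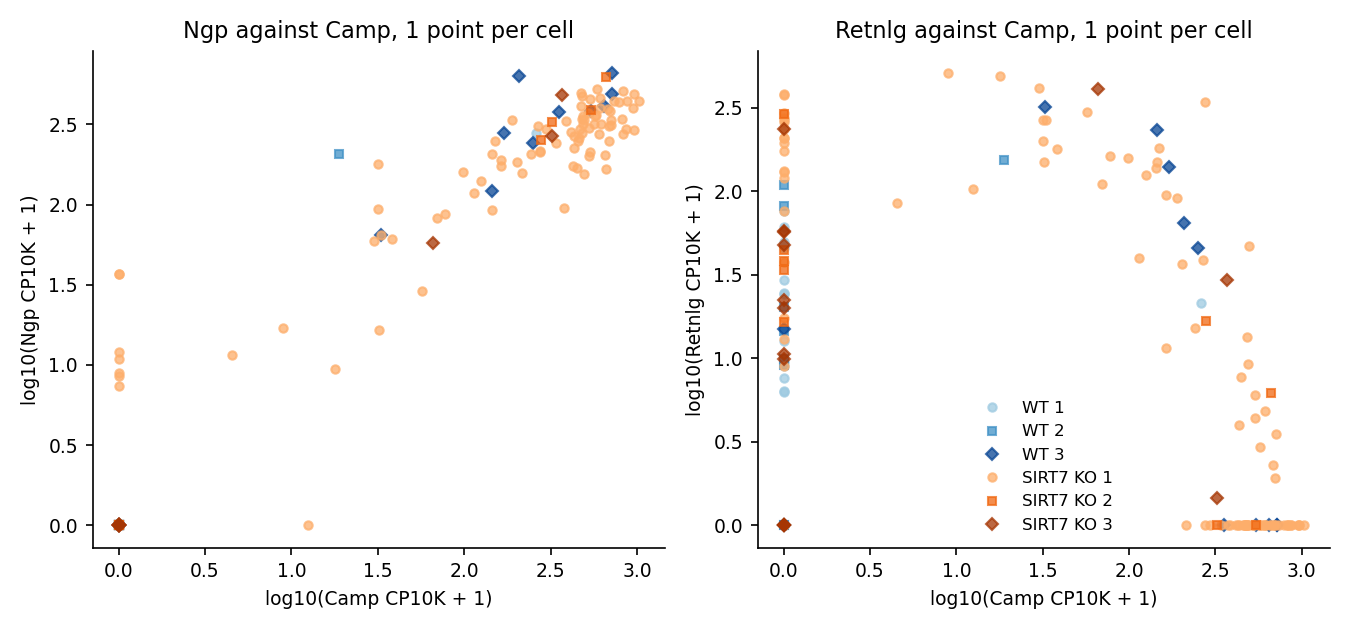
Each point is 1 of the 171 neutrophil-like cells, coloured by mouse. Ngp rises with Camp in the left panel (axes are log10 of CP10K + 1). In the right panel Retnlg runs from 0 to high values in cells with little or no Camp. It is at 0 in many cells at the upper end of Camp.

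Other genes also differed among the 171 cells. Re-clustering the 171 cells without the 10 genes gave 1 cluster at the resolution first set (0.5) and 3 at 0.7, a value chosen after seeing the data. The first, of 78 cells, was led by Il1b, Dusp1 and Ifitm1. The other 7 of its top 10 genes were Csf3r, the receptor for the granulocyte growth factor, and the hepatocyte genes Bhmt, Sult2a1, Serpina1a, Gnmt, Hamp2 and Ass1. The second, of 77 cells, was led by Ccl5, Elane, histone Hist1h2ap and Gzma, with Prtn3 and Nkg7 further down its top 10. Ccl5, Gzma and Nkg7 are T and NK cell genes and were also among the top 10 of the T-like class, so each of these clusters carried leading genes of another cell type, whose part in the split was not tested. The third, of 16 cells, had the antigen presentation genes H2-Eb1 and Cd74 at its top, with 14 of its cells from SIRT7 KO mouse 1.

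In SIRT7 KO mouse 1, which had cells in all 3, the first and second held 27 and 61 cells. Camp was at 112.9 CP10K in the first and 445.1 in the second, Chil3 at 9.40 and 46.3, and Lcn2 at 54.8 and 119.2. Retnlg ran the opposite way, at 118.3 and 71.7 CP10K, as did Mmp8, at 14.8 and 8.95. Of the other genes, scaled per 10000 UMIs outside the 10, elastase (Elane) was at 0.658 and 11.03, the proteinase 3 gene Prtn3 at 0.658 and 10.0, ficolin Fcnb at 0.329 and 5.56, and the regulator Cebpe at 2.63 and 6.98. The gelatinase gene Mmp9 was at 11.5 and 5.36, Cxcr2, a chemokine receptor of mature neutrophils, at 3.29 and 0.911, and Il1b at 12.8 and 0.304. Over the cells of all mice, Retnlg and Mmp8 were nearly level between the first and second clusters. Retnlg was at 69.5 and 66.1 CP10K and Mmp8 at 9.29 and 9.02.

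WT mice 1 and 2 had 23 and 8 cells in the first cluster and 0 and 1 in the second. WT mouse 3 had 6 in each, SIRT7 KO mouse 2 had 3 and 5, and SIRT7 KO mouse 3 had 11 and 4. Il1b in the whole class was at 26.4, 26.8 and 0 CP10K in WT and 3.90, 9.15 and 41.6 in SIRT7 KO, and Csf3r at 16.1, 19.6 and 0.465 in WT and 1.602, 5.36 and 15.9 in SIRT7 KO. WT mouse 3 was lowest in both genes although 6 of its 12 cells were in the first cluster. Cycling genes also differed in SIRT7 KO mouse 1. Per 10000 UMIs outside the 10, its Mki67 and Top2a were at 2.83 and 3.64 in the second cluster. They were at 1.97 and 2.62 in the third and at 0 in the first.

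Among 42 other neutrophil-related genes arranged by granule and function, the class mean was highest in neutrophil-like cells for 3 of 5 azurophil, 6 of 9 specific granule, 2 of 5 gelatinase and tertiary granule, 7 of 9 mature surface, 2 of 6 regulator and 2 of 7 S100 family genes. The S100 genes were S100a6, at 33.4 CP10K, and S100a11, at 23.8 (means over 6 mice), both far below the S100a8 mean. Tlr4 and Ager, receptors for the S100a8/S100a9 protein, were not highest there, and Tlr4 was highest in macrophage-like cells at 0.510 CP10K. Since the classes were built from such genes, these counts describe the classes. Across 53 mouse and class means with at least 20 cells, genes among those most like the summed 10 were Trem3 (Pearson r = 0.68), Cebpe (0.67), Il1f9 (0.66) and Slfn4 (0.66).

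Outside the neutrophil-like class the 10 genes were scarce in most cells and concentrated in a few. The set was grouped under the label of free RNA in every other cell type, which was not tested. Of 11439 cells outside the class, 78.2% had no UMI of the 10 genes. Just 204 cells, 1.78%, had 20 or more, and these held 93.9% (exact 95% binomial interval 93.7% to 94.1%) of the UMIs outside the class. SIRT7 KO mouse 1 had 183 of the 204 cells, SIRT7 KO mouse 2 had 18, WT mouse 3 had 2, SIRT7 KO mouse 3 had 1, and WT mice 1 and 2 had 0 of 1220 and 0 of 924.

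Per mouse, the share of these UMIs lying outside the class was 2.70%, 16.2% and 2.56% in WT and 34.2%, 45.8% and 2.57% in SIRT7 KO. The 16.2% of WT mouse 2 was 159 of 981 UMIs, whereas the 34.2% of SIRT7 KO mouse 1 was 52317 of 153181. Means were 7.16% ± 7.84 (SD, n = 3) in WT and 27.5% ± 22.4 (SD, n = 3) in SIRT7 KO, with SIRT7 KO mouse 3 among the lowest, and no test was made because the class boundary itself sets the value. Leaving the 10 genes in the clustering moved many of the high cells into the class, and the difference of the means changed from 20.4 to -0.409 percentage points. Leaving out the 204 cells gave -4.21. With all cells kept, the difference was 32.8 points without SIRT7 KO mouse 3 and 11.2 points without SIRT7 KO mouse 2.

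**Figure D3:**
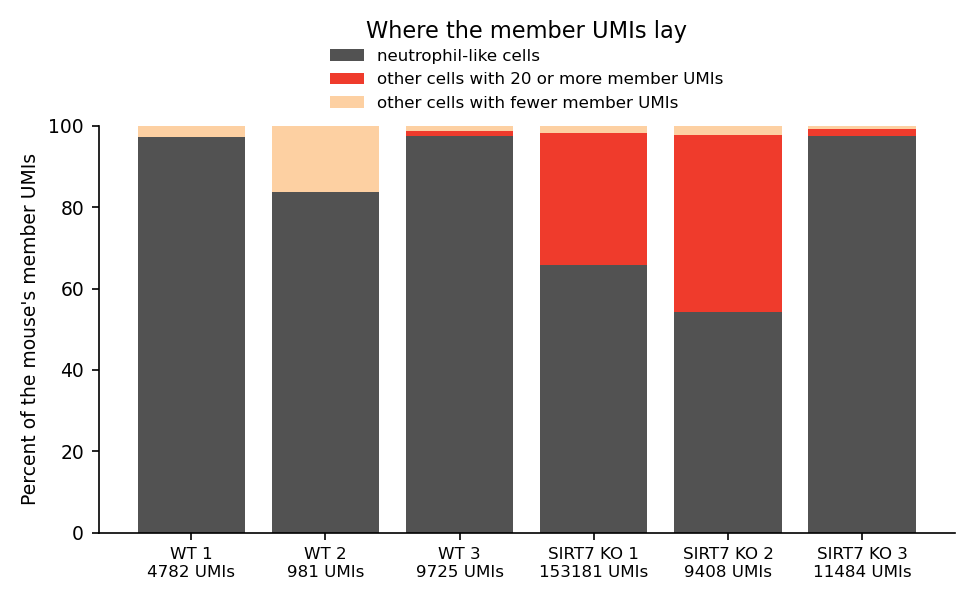
Share of the UMIs of the 10 genes (member UMIs) in each mouse that lay in neutrophil-like cells, in other cells with 20 or more of them and in the remaining cells (stacked bars, percent; total UMIs under each bar). The middle part is large in SIRT7 KO mice 1 and 2 and absent in WT mice 1 and 2.

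The high cells carried markers of their own classes and of neutrophils. In SIRT7 KO mouse 1, 97 were macrophage-like, 27 T-like, 19 dendritic or basophil cells, 10 plasma B-like, 9 endothelial-like, 8 monocyte-like and 6 hepatocyte 2-like. The 97 macrophage-like cells had 190.4 UMIs of the macrophage markers per 10000 UMIs outside the 10 genes, against 244.3 in 1821 macrophage-like cells of that mouse with none of the 10 and 3.88 in its neutrophil-like cells. The same cells had 50.3 UMIs of the 15 neutrophil markers, against 8.16 in the cells with none and 165.4 in neutrophil-like cells. In the 27 T-like cells the neutrophil markers were at 70.8 against 11.9, and the T cell markers at 64.5 against 65.5.

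In SIRT7 KO mouse 2, 6 high macrophage-like cells had neutrophil markers at 35.5 against 6.70, and macrophage markers at 111.3 against 207.1. Total depth in the high cells of SIRT7 KO mouse 1 was above that of its cells with none, at 2461 against 2052 UMIs (medians) for macrophage-like and 1620 against 870.5 for endothelial-like cells, although not for the dendritic and basophil cells, at 1534 against 1652.5. In plasma B-like cells the neutrophil marker sum includes Slpi, which those cells make themselves (37.5 CP10K), and the sum is not specific to neutrophils there. A doublet caller marked 46 of the 11610 cells, 0.396%, too few for it to have worked, and 0 of the 204. The part of doublets in these cells was not tested.

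The genes carried by the high cells differed from class to class. Camp was detected in 48 of the 97 high macrophage-like cells of SIRT7 KO mouse 1 and in 8 of its 10 plasma B-like ones, but in 5 of 27 T-like and 2 of 9 endothelial-like ones. In that mouse Camp made up 11.8% (exact 95% binomial interval 11.6% to 11.99%) of the UMIs of the 10 genes in neutrophil-like cells, 9.72% (9.41% to 10.0%) in macrophage-like, 13.1% (12.3% to 13.8%) in plasma B-like, 3.43% (2.88% to 4.05%) in T-like and 0.933% (0.498% to 1.59%) in endothelial-like cells. Retnlg ran the other way, at 1.14% in neutrophil-like, 2.05% in macrophage-like, 0.611% in plasma B-like, 4.99% in T-like and 9.05% in endothelial-like cells. With high cells included, the contrast between Camp and Retnlg seen among neutrophil-like cells of that mouse was therefore present between these classes too. Hepatocyte 1-like cells of that mouse departed from it, with Camp at 3.05% and Retnlg at 2.58%. Without its 9 high cells, the endothelial-like class had Camp at 6.96% and Retnlg at 0.870%. Without high cells, Camp and Retnlg were at 4.82% and 2.15% in macrophage-like and at 3.02% and 1.86% in T-like cells. In plasma B-like cells each was then at 3.66%. The contrast between these classes thus rests on the high cells.

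In SIRT7 KO mouse 2 the plasma B-like cells had 637 of these UMIs in 5 cells, with Retnlg at 12.2% (9.80% to 15.05%) and Camp at 0%. In its 9 neutrophil-like cells Retnlg was at 1.65% and Camp at 11.02%. The UMIs within a cell are not independent, so these intervals are too narrow for a statement about cells.

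**Figure D4:**
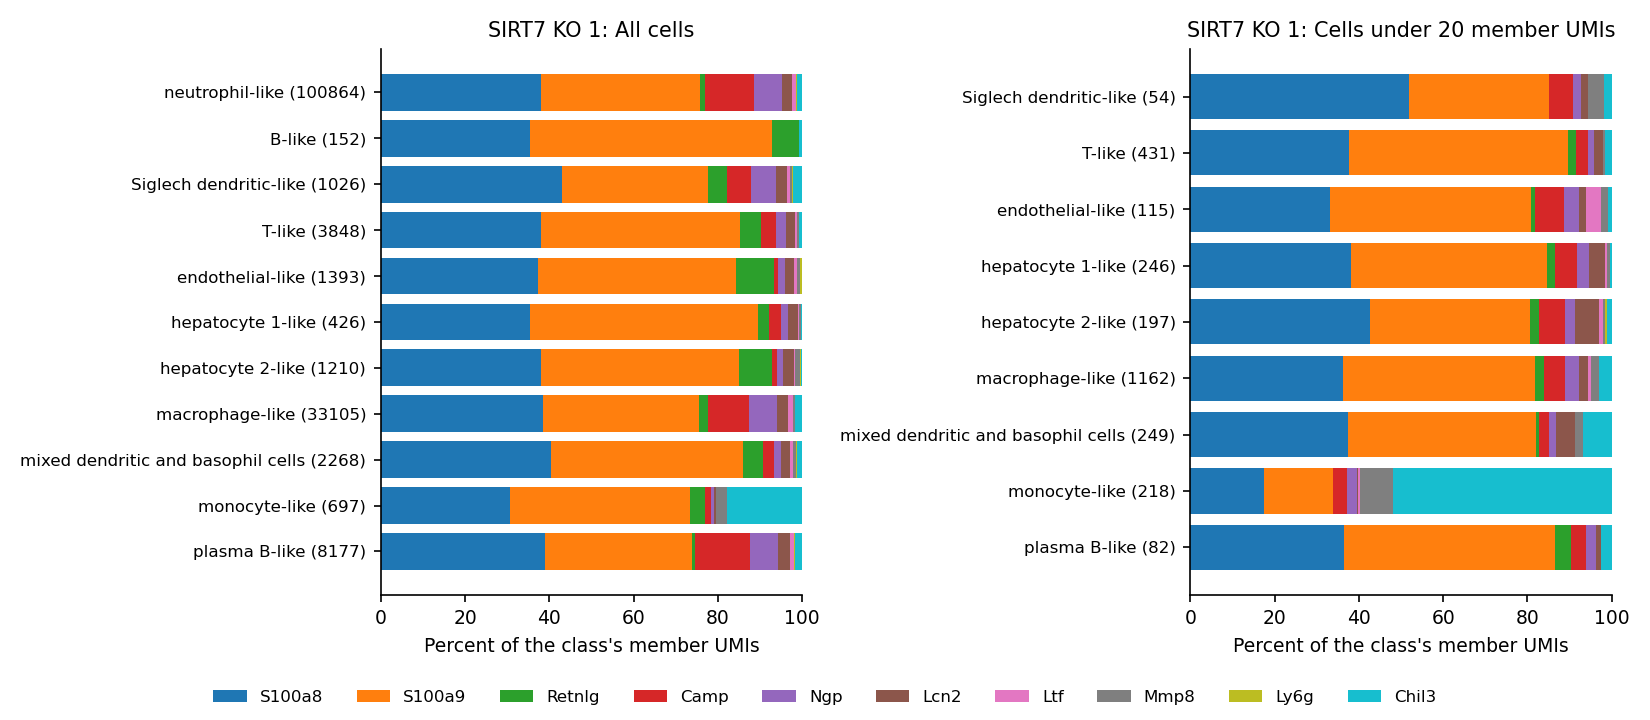
Make-up of the UMIs of the 10 genes in SIRT7 KO mouse 1 by class (horizontal bars, percent; UMIs in brackets), for all cells on the left and for cells with fewer than 20 of them on the right. Camp is wide in the neutrophil-like, macrophage-like and plasma B-like bars on the left, and Chil3 takes 51.8% of the monocyte-like bar on the right.

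Below the level of those high cells, SIRT7 KO mouse 1 also had a thin layer of the same transcripts in every class with 20 or more cells. Without the high cells and the monocyte-like class, the summed mean was 2.19 to 6.09 CP10K over its 10 classes, against 0 to 2.56 in 35 values of the other 5 mice. Of its cells in these 10 classes, high cells included, 32.4% to 45.9% per class had a UMI of the 10 genes. Thinning to 1000 UMIs per cell left out 1025 of its cells and 28 to 240 cells in each other mouse. The share was then 14.3% to 33.3%, against 0% to 9.68% elsewhere. In its monocyte-like cells the shares were 53.4% and, thinned, 44.8%, against up to 38.5% and 20% in the other mice. The layer was mostly the alarmin pair, which took 80.7% to 89.6% of it over 8 classes, compared with 75.7% in neutrophil-like cells of that mouse. Camp took 2.41% to 6.96%.

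**Figure D5:**
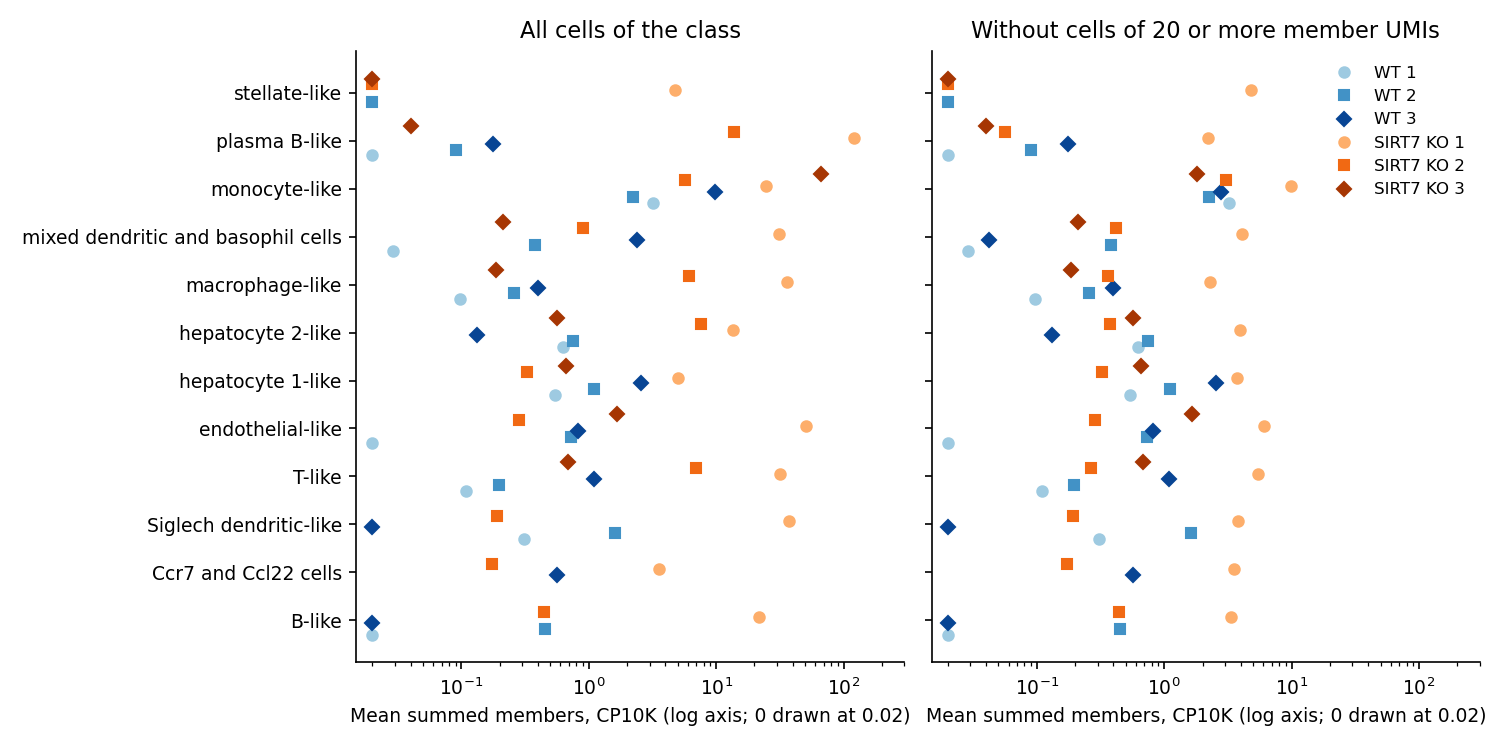
Summed mean level of the 10 genes outside the neutrophil-like class (x axis, CP10K on a log axis, values of 0 drawn at 0.02; 1 point per mouse and class with at least 5 cells). With all cells, on the left, the points of SIRT7 KO mouse 1 reach 120.9 CP10K in plasma B-like cells; without the cells of 20 or more UMIs, on the right, its highest is 9.97, in monocyte-like cells.

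The genotypes were compared in the 8 classes with at least 20 cells in 2 or more mice of each genotype, using limma on log2(mean CP10K + 0.05) with p-values adjusted (Benjamini-Hochberg) across every gene tested in that class. None of the 10 genes passed in 7 of the 8 classes. S100a8, S100a9 and Retnlg drew attention to the set through the plasma B cells, so the other classes share libraries with the contrast that chose them. In macrophage-like cells S100a8 was at 0.0193, 0.232 and 0.275 CP10K in the WT mice and at 13.7, 2.49 and 0.0548 in the SIRT7 KO mice, and S100a9 at 0, 0.0262 and 0.0893 in WT and 13.5, 2.21 and 0.0114 in SIRT7 KO. SIRT7 KO mice 1 and 2 were high and SIRT7 KO mouse 3 was below the highest WT mouse for both. The log2 differences were 3.06 ± 1.89 (SE) and 3.93 ± 2.02 (SE), with limma adjusted p-values of 0.635 and 0.568. Of the 8 genes tested in this class, 0 passed, beside 0.201% of all 9955 genes. Summed UMIs with limma-voom also gave 0 of 8. At an unadjusted limma p under 0.05 were 5, beside 10.6% of all genes. Camp, Ngp and Ltf, among those 5, were at 0 in WT and entered the test only through SIRT7 KO libraries. Nothing is read from that count. Camp and Chil3 were higher in every SIRT7 KO mouse than in every WT mouse, as were 7.22% of all genes. For SIRT7 KO mouse 3 this was 1 Camp UMI and 2 Chil3 UMIs in 84 cells. The highest WT value of Chil3 was 1 UMI in 243 cells of WT mouse 3. Without SIRT7 KO mouse 3 the log2 difference of S100a9 was 6.10. That left SIRT7 KO mice 1 and 2, the knockout mice compared in plasma B-like cells, so no p is given. Without high cells S100a9 was at 1.10 and 0.0735 CP10K in those mice.

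T-like cells, a class with T and NK cells, had S100a8 at 0, 0.0532 and 0.115 CP10K in WT and 11.8, 3.07 and 0.0763 in SIRT7 KO. The log2 difference was 4.14 ± 1.89 (SE, limma adjusted p = 0.760), and the genotypes overlapped. Ngp came nearest to the threshold, with 0 UMIs in the WT mice (205, 155 and 254 cells) and 0.356, 0.160 and 0.156 CP10K in SIRT7 KO, of which the last was 1 UMI in 31 cells (limma adjusted p = 0.117). Of 6 genes tested, 0 passed (0 with voom), beside 0.13% of all genes, and 4 were at an unadjusted p under 0.05, beside 7.23%. Camp and Ngp, among those 4, were at 0 in WT, so nothing is read from that count. Ngp and Lcn2 were higher in every SIRT7 KO mouse than in every WT mouse, as were 5.26% of all genes. Without high cells Lcn2 overlapped, at 0.0208 CP10K in SIRT7 KO mouse 2 against 0.0716 in WT mouse 3. At a Leiden resolution of 1.0, 2 of the genes passed (S100a8 and Retnlg), and 3 without SIRT7 KO mouse 3 (S100a8, Retnlg and Ngp). The latter kept only the knockout mice compared in plasma B-like cells, so nothing is read from it.

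Plasma B-like cells could be compared in 2 mice per genotype. S100a8 was at 0 and 0.0764 CP10K in WT mice 2 and 3 and at 47.7 and 5.27 in SIRT7 KO mice 1 and 2. Retnlg was at 0.0391 and 0 CP10K in WT and 0.740 and 1.76 in SIRT7 KO, which was 1 UMI in WT, and 50 UMIs in 6 cells and 78 UMIs in 2 cells in SIRT7 KO. These genes were chosen with that contrast known, so their values are a description and no p is given. For the same reason nothing is read from the count past the threshold there, 1 of 9 genes (Retnlg), beside 0.026% of all genes. The 12 cells of 20 or more UMIs in SIRT7 KO mice 1 and 2 held 99.0% and 99.5% of the UMIs there. Of the 9 genes, 5 were higher in both SIRT7 KO mice than in both WT mice, as were 26.6% of all genes. SIRT7 KO mouse 3, with 14 plasma B-like cells, had S100a8 at 0.0399 CP10K.

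In hepatocyte 2-like cells, S100a8 was at 0.0128, 0.0516 and 0 CP10K in WT and at 5.17, 1.71 and 0.141 in SIRT7 KO, with no overlap, as in 13% of all genes in that direction. The 1.71 of SIRT7 KO mouse 2 came from 1 high cell of 49, and without high cells the SIRT7 KO values were 1.68, 0 and 0.141, which overlap WT. The log2 difference was 4.14 ± 0.988 (SE, limma adjusted p = 0.164). With the replicate number as a block it passed (limma adjusted p = 0.00169), though the labels do not say that the numbers pair the mice. Of 5 genes tested, 0 passed (0 with voom), beside 0.253% of all genes, and 2 were at an unadjusted p under 0.05, beside 10.5%. Without SIRT7 KO mouse 3, 2 passed (S100a8 and S100a9), but only the knockout mice compared in plasma B-like cells were left. Nothing is read from that count.

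Lcn2 is known in hepatocytes as an acute phase gene. Its level in hepatocyte 2-like cells was at 0.583, 0.559 and 0.132 CP10K in WT and 0.359, 0 and 0.310 in SIRT7 KO, a log2 difference of -1.08 ± 0.774 (SE, limma adjusted p = 0.651). Without its 6 high cells SIRT7 KO mouse 1 was at 0.188 CP10K there. Among hepatocyte 1-like cells Lcn2 was at 0.405, 0.431 and 0.0835 CP10K in WT and 0.151, 0.162 and 0.590 in SIRT7 KO. Lcn2 made up 58.5% of the 82 UMIs of the 10 genes in hepatocyte 1-like cells of WT mouse 2. In hepatocyte 2-like cells of SIRT7 KO mouse 3 it made up 60.0% of the 55. The neutrophil-like cells of these mice had 2.43% and 1.81%. In SIRT7 KO mouse 1 its share was lower, at 2.35% of 426 UMIs in hepatocyte 1-like and 2.56% of 1210 in hepatocyte 2-like cells. The neutrophil-like cells of that mouse had 2.55%. For hepatocyte 1-like cells, 3 of the genes could be tested and 0 passed (0 at an unadjusted p under 0.05, 0 with voom), beside 0.487% of all genes. None of the 3 was higher in every SIRT7 KO mouse than in every WT mouse, which 7.86% of all genes were.

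Monocyte-like cells had their own pattern. Chil3 was found in all 6 mice, at 2.93, 1.32 and 2.09 CP10K in WT and 5.31, 2.27 and 1.07 in SIRT7 KO, with a log2 difference of 0.22 ± 0.477 (SE, limma adjusted p = 0.962). Mmp8 was at 0.201, 0.624 and 0.128 CP10K in WT and 0.696, 0.476 and 0.430 in SIRT7 KO. In SIRT7 KO mouse 1, Chil3 made up 17.8% (exact 95% binomial interval 15.02% to 20.8%) of the UMIs of the 10 genes in this class and 51.8% (45.0% to 58.6%) without the high cells, against 1.26% (1.19% to 1.33%) in neutrophil-like cells. Camp was at or near 0, with 0 UMIs in 5 of the 6 mice.

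S100a8 in the same class was at 0, 0.292 and 2.40 CP10K in WT and 7.22, 1.27 and 29.7 in SIRT7 KO. The last value was 88 UMIs in 1 of 26 cells, and the 2.40 of WT mouse 3 was 34 UMIs in 2 of 80 cells. Away from the high cells S100a8 was at 0 to 0.292 CP10K in 5 mice and at 1.77 in SIRT7 KO mouse 1. Of 8 genes tested, 0 passed (0 with voom), beside 0.206% of all genes, and 1 was at an unadjusted p under 0.05, beside 7.04%. Lcn2 was higher in every SIRT7 KO mouse than in every WT mouse, as were 4.58% of all genes, and overlapped without high cells, at 0.0631 CP10K in SIRT7 KO mouse 1 against 0.0912 in WT mouse 1. Slpi, a protease inhibitor of the 42 other genes, was the only one of them to pass in any of the 8 classes. It was at 0.912, 0.701 and 0.679 CP10K in WT monocyte-like cells and 2.39, 2.12 and 2.63 in SIRT7 KO, a log2 difference of 1.58 ± 0.365 (SE, limma adjusted p = 0.0339).

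SIRT7 KO mouse 3 had 8 endothelial-like cells, too few to be compared, which left 3 WT mice and SIRT7 KO mice 1 and 2. In endothelial-like cells 0 of 8 genes passed (0 with voom), beside 0.253% of all genes, and 1 was at an unadjusted p under 0.05, beside 7.78%. In this class 2 passed without SIRT7 KO mouse 2 (S100a9 and Retnlg), where SIRT7 KO mouse 1 was the only knockout mouse left. The genotypes overlapped for all 8, and 9.63% of all genes were higher in both SIRT7 KO mice compared than in every WT mouse. In the mixed dendritic and basophil cells 0 of 7 passed (0 at an unadjusted p under 0.05, 0 with voom), beside 0.0312% of all genes, and the genotypes overlapped for all 7, with 5.45% of all genes higher in every SIRT7 KO mouse. Median log2 differences of the genes tested per class ran from -0.47 to 4.12, while those of all genes ran from -0.07 to 0.23. Most of the granule genes entered a test only through the libraries where they were high. Neither these medians nor the counts at an unadjusted p under 0.05 therefore weigh for a difference. Leaving out SIRT7 KO mouse 1 turned the S100a9 difference to -1.35 in endothelial-like cells and to -0.22 in the mixed class.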

How the data were processed

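Livers of 3 WT and 3 SIRT7 KO mice were profiled with the 10x Genomics 3′ kit. The submitters' processing notes name Cell Ranger 6.0.0 and mm10. The authors deposited the natural log of CP10K + 1 for each cell and gene, and each value worked back to a whole UMI count within 0.02. The authors had filtered the table already: no cell has fewer than 500 genes or more than 5.01% mitochondrial UMIs. The columns were log values, so no count model was the main test.

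Cells were clustered with scanpy 1.11.5 (1000 variable genes, 50 components, Leiden resolution 0.35) without the 10 genes. The first-round cluster that held neutrophils was clustered again, a step added after seeing the data. Genotypes were compared per class with limma 3.58.1 on log2(mean CP10K + 0.05) per mouse, for genes averaging 0.05 CP10K or more, mice with at least 20 cells and an adjusted p under 0.05. In neutrophil-like cells, where mice had 9 to 102 cells, a two-sided exact permutation test over mice was used. High cells are those outside the neutrophil-like class with 20 or more UMIs of the 10 genes. The genes named are the 10, a list of 42 other neutrophil-related genes, and the 5 genes most correlated with the summed 10, of which 1 is not reported here. The members and lists were chosen with earlier results of these data known. Scripts were tested on simulated data. The labels do not tie replicate numbers to litters or days, and nothing beyond the mouse number marks a batch. Barcode sequences shared between mice occurred in 26 cells, 0 of them neutrophil-like.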

Additional observations from a re-analysis of the deposited data

How the results depend on the processing

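The difference in neutrophil-like share (0.406 percentage points) ran from -0.188 to 1.05 with 1 mouse left out, -0.188 being without SIRT7 KO replicate 3. The difference in the share of UMIs outside the class (20.4 points) was -0.409 with the 10 genes kept in the clustering, -4.21 without cells of 20 or more of their UMIs, and 11.2 to 32.8 with 1 mouse left out. The number of the 10 genes called in T-like cells was 2 at Leiden resolution 1.0 and 0 to 3 with 1 mouse left out. Without SIRT7 KO mouse 3, only the knockout mice compared in plasma B-like cells remained, so nothing is read from counts without it. Leaving out 1 mouse gave 0 to 2 in endothelial-like, 0 to 2 in hepatocyte 2-like and 0 to 1 in macrophage-like cells. In plasma B-like cells, the contrast on which genes were chosen, nothing is read from these counts: with 1 gene called, it gave 1 to 6, while 0 were called with at least 10 cells, 3 with the 10 genes kept in the clustering, 2 with no filter and 0 without cells of 20 or more UMIs. With 1 mouse of a genotype left, that mouse was assumed to vary like the others. Deviations of same-numbered mice had correlations of -0.142 to 0.0765 over 21 pairs, so no shared deviation was seen. Whether the numbers pair the mice is not known. The replicate block gave 1 call in hepatocyte 2-like cells (S100a8) and 0 in the other 6 classes where it could be fitted. Signs that turned belonged to differences that did not pass. In hepatocyte 1-like cells, S100a8 was 1.72 and S100a9 2.01 with voom, S100a9 was 0.0909 at a pseudocount of 0.5 and Lcn2 0.0908 at Leiden resolution 1.0, and with 1 mouse left out they ran from -2.05 to 0.56, -2.18 to 0.66 and -0.64 to 0.29. Chil3 in monocyte-like cells was -0.0148 with voom and -0.35 to 0.78 with 1 mouse left out. In neutrophil-like cells, Mmp8 was 0.0619 without called doublets, 0.0863 with at least 10 cells and -1.11 to 0.41 with 1 mouse left out, Ltf -0.30 to 1.79 and Ly6g -1.72 to 0.16. S100a9 in endothelial-like cells ran from -1.35 to 7.58, and in the mixed dendritic and basophil cells S100a8 ran from -0.0332 to 3.95 and S100a9 from -0.22 to 2.998. The causes were not tested. Of the other values for single genes, 392 kept their direction and side of the threshold. The number of neutrophil-like cells, 9 each, limits WT mouse 2 and SIRT7 KO mouse 2.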
